A study of Mus musculus with 6 samples.

Results

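Krt5, Krt14, Krt15 and Krt17 are the keratins most often used to mark basal cells of stratified squamous epithelium, and they are 4 of the 32285 genes measured in these organoids. They were chosen by name and read in all 6 libraries, in cells with at least 500 detected genes, which left 25154 of 26808 cell barcodes. Cells with a deposited Krt13 value below 3 on the natural log scale, which is fewer than 19.1 Krt13 molecules per 10000, are called Krt13-low cells below. They numbered 15202, or 60.4% of the cells kept.

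The organoids were grown from esophageal epithelial cells of C57BL6 mice. The founders were sorted as integrin-b1 positive and DAPI negative, and then as Cyto-ID Low or Cyto-ID High. Cyto-ID is a dye that labels autophagic vesicles. Both groups had the same treatment after the sort: 500 to 1000 founders per well were embedded in Matrigel and cultured for 15 days in medium with 50 ng/ml EGF, Noggin/R-Spondin-conditioned medium, N-acetyl-L-cysteine, N2 and B27 supplements and 10 µM Y27632, a kinase inhibitor. Dead cells were removed, and 3′ single-cell libraries were made. Each group had 3 libraries, labelled F2, M3 and F6 in both; the labels do not say what F2, M3 and F6 stand for or whether animals were pooled, so p-values measure the spread between these libraries. The Cyto-ID state is that of the founders, not of the cells that were sequenced.

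Keratins are the intermediate filament proteins of epithelia and assemble as pairs of a type II and a type I chain. Krt5 is the type II keratin of basal cells and Krt14 is its type I partner. Krt15 is a type I keratin that marks a subset of basal cells, among them slow-cycling cells of the esophagus and the hair follicle bulge, and Krt17 is a type I keratin of appendages, basal-like cells and injured or activated epithelium. As squamous cells leave the basal layer of the esophagus they switch on Krt13 and its partner Krt4.

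In GENCODE M21 on GRCm38 all 4 genes are protein-coding and lie on the minus strand. Krt5 is on chromosome 15 (start 101707070, end 101712898), among type II keratins. The 3 type I genes sit together on chromosome 11: Krt15 from 100131758 to 100135928, Krt14 from 100203162 to 100207548 and Krt17 from 100256217 to 100261029. The promoter of Krt5, the only one of the 4 with a usable window, is printed as the reference window from RefSeq (GRCm38.p6, chr15:101712856-101713155, minus strand, 250 bases before to 50 bases after the start).
Krt5 promoter: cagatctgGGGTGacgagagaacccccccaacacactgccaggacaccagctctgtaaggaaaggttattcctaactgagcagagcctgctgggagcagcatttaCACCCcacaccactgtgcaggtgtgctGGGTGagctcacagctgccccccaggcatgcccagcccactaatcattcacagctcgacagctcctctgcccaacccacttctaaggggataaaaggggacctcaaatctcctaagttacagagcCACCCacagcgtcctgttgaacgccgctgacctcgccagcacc
The capitals mark CACCC on either strand, the core letters of boxes bound by KLF-family factors. The window holds 4 matches, and 57.5% of the 32851 promoter windows of this length hold at least 1. No match to TGANTCA (AP-1), GCCNNNGGC (AP-2), GGGCGG or TATAAA was found in it on either strand. The Krt14 window from the same source begins 1518 bases inside the GENCODE gene and is not printed, and that source held none for Krt15 or Krt17.

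The 6 libraries held 153700756 UMIs, and their median UMIs per kept cell ranged from 1940.5 (Cyto-ID High F6) to 10038 (Cyto-ID High F2). Levels are UMI counts scaled to the same total in every cell (CPM) and averaged over cells. Each molecule is counted once at its 3′ end, so levels can be compared between genes without a correction for length. Any pair of libraries shared 0 to 10 cell barcodes, at most 0.32% of the smaller library. Doublets were neither called nor removed here. The list of 10 basal squamous markers includes Krt5, Krt14, Krt15 and Krt17 themselves. All 10 were measured above 10 CPM in the Krt13-low cells. They summed to 17218 to 22494 CPM in Cyto-ID Low and 11888 to 27172 CPM in Cyto-ID High. Most of that sum came from the keratins under study, so it is no separate sign of basal identity. Every fibroblast, muscle, endothelial, immune and neural or melanocyte marker was under 10 CPM. Of 8 simple or columnar epithelium markers 5 were above 10 CPM, with a summed level of 1351 to 3078 CPM in Low and 576 to 1883 CPM in High. The 5 suprabasal markers were Krt4, Krt6a, Krtdap, Sbsn and Krt13, whose value set the limit for these cells. All were above 10 CPM and summed to 1258 to 1399 CPM in Low and 1812 to 2743 CPM in High. Krt6a had the highest level of them and did not pass the test between the groups given below. Of the 5 superficial markers 3 were above 10 CPM, with sums of 272 to 730 CPM in Low and 91.7 to 391 CPM in High. The part of these markers in the results was not tested. Krt13-low cells were not purely basal: 4.35% to 8.82% of them had a UMI of the superficial markers Sprr3, Lor, Cnfn, Tgm3 or Sprr2f after thinning to 1000 UMIs per cell, against 26.3% to 50.2% of the other cells. Of the 91-base windows of the Krt14 transcripts, 3.84% also occur in Krt16, and 3.42% of those of Krt5 occur in Krt6a, Krt6b or Gm5478; all of them start at least 1166 bases from the 3′ end, and Krt15 and Krt17 share none with another gene.

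Krt14 was the most abundant of the 4 in every library and Krt15 the least. In Krt13-low cells Krt14 was at 8219, 13025 and 8735 CPM in Cyto-ID Low F2, M3 and F6, and at 10399, 17529 and 6041 CPM in Cyto-ID High F2, M3 and F6. Its type II partner Krt5 was at 3319.7, 3948 and 3068 CPM in Low and 3642, 3983 and 2809 CPM in High. Both keratins were highest in the M3 library of each group, and the groups overlapped. The ratio of Krt14 to Krt5 therefore ran from 2.15 in High F6 to 4.40 in High M3, with the Low libraries between 2.48 and 3.30.

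Krt17 was at 2589, 2666 and 2809 CPM in the Cyto-ID Low libraries and at 2331, 3553 and 1319.5 CPM in the Cyto-ID High libraries. The Low libraries lay close together (SD 111 CPM, n = 3), inside the range of the High libraries (SD 1118.5 CPM, n = 3). Krt15 was at 375, 1060.2 and 435 CPM in Low and at 223, 821 and 77.3 CPM in High. It was lower in High within every label, at 0.593, 0.774 and 0.178 of the Low level for F2, M3 and F6. The groups nevertheless overlapped, because both M3 libraries stood above all others.

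Between the highest and the lowest library Krt15 varied 13.7-fold, Krt14 2.90-fold, Krt17 2.69-fold and Krt5 1.42-fold. In all libraries the order was Krt14 first and Krt15 last, while Krt5 and Krt17 stood next to each other (Krt17 at 0.470 to 0.916 of Krt5). Together the 4 keratins made up 1.45% to 2.07% of the UMIs of Krt13-low cells in Low and 1.02% to 2.59% in High.

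**Figure D1:**
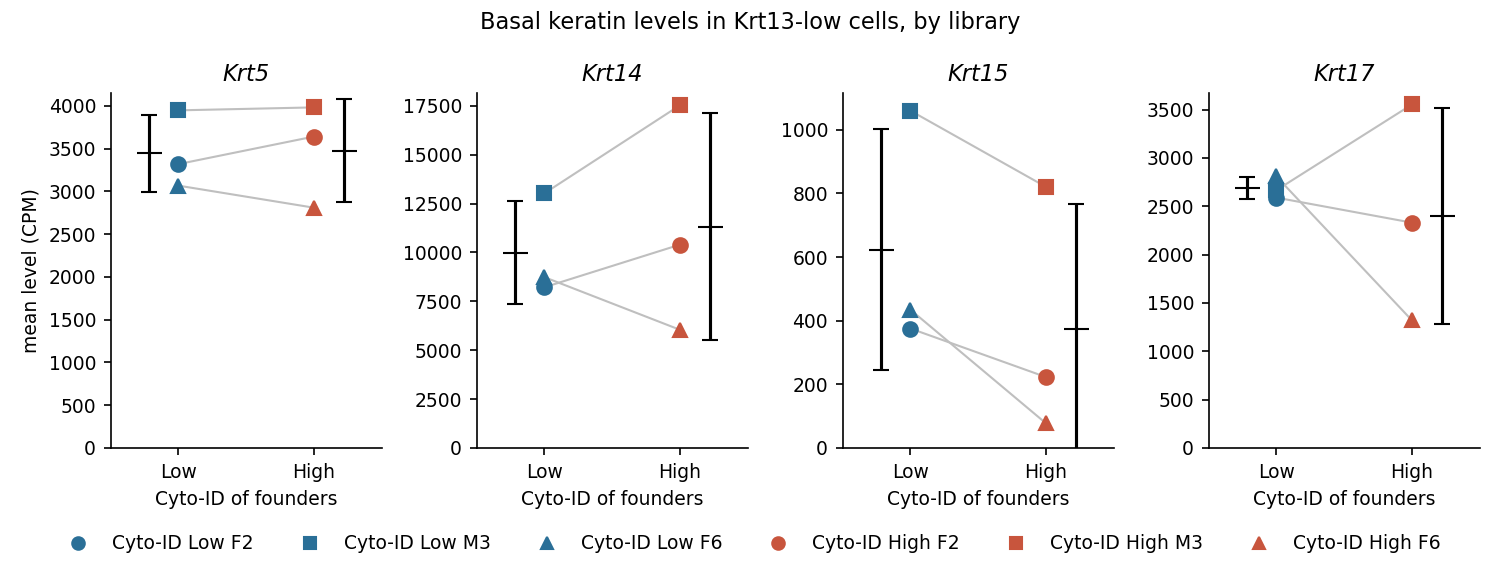
Mean level of each keratin (vertical axis, CPM, from 0) in Krt13-low cells of the Cyto-ID Low and Cyto-ID High libraries; grey lines join libraries with the same label, and black bars give the group mean ± SD (n = 3), cut off at 0 for Krt15 in High. Krt15 falls from Low to High along all 3 lines, between group means of 623 and 374 CPM whose SDs overlap.

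None of the 4 keratins passed the test between Cyto-ID High and Cyto-ID Low, where 0.23% of 11729 genes did in Krt13-low cells. That test was limma on the 6 library means, with Benjamini-Hochberg adjustment over all genes, and 27 genes were higher and 0 lower in High (832 genes at an unadjusted p under 0.05). The log2 differences, High minus Low, were 0.16 ± 0.30 (SE) for Krt5, 0.23 ± 0.46 for Krt14, −1.05 ± 0.73 for Krt15 and −0.12 ± 0.37 for Krt17, with limma adjusted p of 0.93, 0.94, 0.80 and 0.97. With the library label as a block limma called 81 genes (0.691%), 75 higher and 6 lower, again none of the 4 (Krt15 adjusted p = 0.27). In plain CPM the median of all genes was −0.14, and relative to it the 4 differences were 0.15, 0.22, −1.06 and −0.14. Over all kept cells the differences were 0.04, 0.22, −0.91 and 0.02, 0.172% of 11645 genes were called, and none of the 4 was (68 genes, or 0.584%, with the block).

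The Krt15 difference depended on which library entered: without High F6 it was −0.29 on the log2 scale, and without High M3 it was −1.94 (limma adjusted p of 0.19 there). Krt14 turned to −0.16 without High M3, and Krt17 to 0.19 without High F6. An exact permutation test of the Krt15 level itself gave p = 0.5 (two-sided, 3 libraries against 3, smallest possible p 0.1).

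Among the genes that did differ in Krt13-low cells, 11 met the rule for naming, and all were higher in High. They included the metallothioneins Mt4 (log2 difference 6.68 ± 0.62 SE, limma adjusted p = 0.0035) and Mt3 (4.68 ± 0.34, adjusted p = 0.00095), the differentiation-associated Krtdap (5.06 ± 0.59, adjusted p = 0.011), Igfbp2, which binds insulin-like growth factors (2.92 ± 0.22, adjusted p = 0.0011), and the serine protease inhibitor Spink5 (1.82 ± 0.22, adjusted p = 0.012). The others were Ces1h, Gsta1, Capns2, Aldh3a1, Sprr1b and Chchd10. Most were near the floor in Low. Mean levels in Low and High were 4.69 and 389 CPM for Mt4 and 0.804 and 39.4 CPM for Mt3. Krtdap was at 22.7 and 610 CPM, Igfbp2 at 12.5 and 88.7 CPM and Spink5 at 92.5 and 297 CPM. Ces1h, Gsta1, Capns2, Aldh3a1 and Sprr1b were at 3.86 to 6.49 CPM in Low and 37.6 to 69.4 CPM in High. Genes under 20 CPM in Low met the rule for naming through their level in High. Of the 27 genes, 7 were also called without High F6, 6 without Low F6 and 11 without High F2. Of 10 suprabasal genes tested 1, Krtdap, was higher in High and 0 were lower (limma; median log2 difference 0.47 beside −0.00 for all genes), and with the block Tgm3 and Sbsn passed too.

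The stress keratins Krt6a, Krt6b and Krt16, which are induced in injured or activated epithelium, did not pass between the groups. Krt16 was at 428 ± 91.8 CPM in Low and 1359 ± 354 CPM in High (SD, n = 3), higher in 3 of 3 labels, with a limma adjusted p of 0.073 that fell under the threshold only with the block. Krt6a was at 827 ± 28.3 and 1155 ± 272 CPM and Krt6b at 56.5 ± 12.2 and 108 ± 43.6 CPM, both also higher in 3 of 3 labels without passing. Of 15 other keratins tested, 0 passed in either direction, and their median log2 difference was −0.12 beside −0.00 for all genes. Of 13 basal adhesion genes, among them the hemidesmosome genes Itgb4, Col17a1 and Dst, 0 passed (median −0.29), and 0 of 13 squamous transcription factors did (median 0.35); with the block Ovol1 passed.

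Krt17 separated cells by Krt13 more than any other of the 4. Its mean over the 6 libraries was 2967 ± 825 CPM (SD, n = 6) in cells with a Krt13 value below 1 and fell step by step to 2558, 1721, 752, 378 and 139 ± 47.8 CPM in cells at 5 or more. Every library followed that order. The share of cells with a Krt17 UMI at 1000 UMIs per cell went from 74.2% to 9.29%. Just inside the limit of 3 (values of 2.5 to 3) Krt17 was at 1542 CPM and just outside it (3 to 3.5) at 942 CPM, so the limit cut a slope and not a gap.

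The mean levels of Krt5 and Krt14 followed Krt13 in no direction common to the libraries, while the share of cells with a UMI at 1000 UMIs per cell was lower at 5 or more than below 1 in 6 of 6 libraries for both. Averaged over the libraries that share was 97.7% below 1 and 80.2% at 5 or more for Krt14, and 91.4% and 80.4% for Krt5. In mean level Krt5 was at 3446 ± 528 CPM below 1 and 3433 ± 500.3 CPM at 5 or more, and Krt14 at 10188 ± 4076 and 8739.7 ± 2447 CPM (SD, n = 6). In High M3, for example, Krt5 was at 4057 CPM below 1 and 2659.6 CPM at 5 or more, while in High F6 it was at 2795 and 3509 CPM. Krt15 averaged 434 CPM below 1, 582 CPM at 2 to 3 and 183 CPM at 4 to 5, and was at 231 CPM at 5 or more. In both F2 libraries Krt15 was higher at 5 or more than in Krt13-low cells. It was at 533 CPM in the 240 cells at 5 or more against 375 CPM in Low F2, and at 244 against 223 CPM in High F2. In the other libraries Krt15 was lower at 5 or more, in High F6 by little (72.0 against 77.3 CPM).

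**Figure D2:**
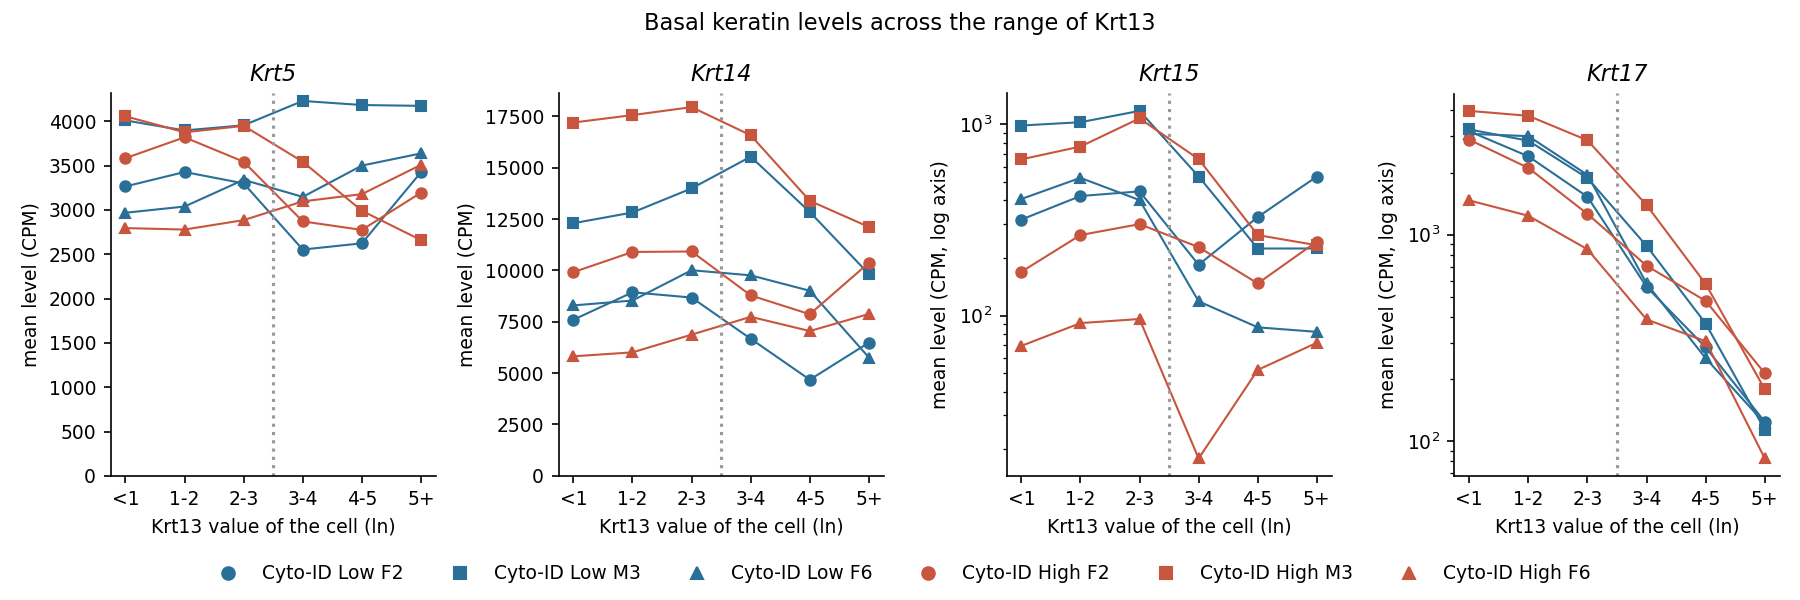
Mean level of each keratin (vertical axes in CPM, linear from 0 for Krt5 and Krt14, logarithmic for Krt15 and Krt17) in cells binned by their Krt13 value (horizontal axis, natural log of 1 + molecules per 10000), 1 line per library; the dotted line is the limit of 3. Krt17 declines along every line, from a mean of 2967 to 139 CPM, while Krt5 lies between 2553 and 4229.6 CPM in all bins.

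In a fit of Krt13-low minus other cells within each library, 60.5% of 11429 genes passed (limma, 3262 or 28.5% higher and 3653 or 32.0% lower), so a call carries little by itself. Krt17 was higher in 6 of 6 libraries, by 4.18-fold (High F2) to 8.88-fold (Low F6) in CPM, with a log2 difference of 2.08 ± 0.10 (SE; limma adjusted p = 5.6e-09). Krt15 was 1.11-fold (High F2) to 4.56-fold (Low F6) higher in 6 of 6 libraries in CPM. On the scaled values used in the fit it was lower in both F2 libraries, at −0.30 in Low F2 and −0.25 in High F2 on the log2 scale. The fitted log2 difference was 0.64 ± 0.22 (limma adjusted p = 0.022). That call was lost without Low M3 (adjusted p = 0.060) or Low F6 (0.076) and with the limit at Krt13 below 2 (0.14 on the log2 scale, adjusted p = 0.51) or below 4 (0.64, 0.0504), with no filter (0.12) and with 1000 or more detected genes (0.43, 0.12). Krt5 and Krt14 had fitted differences of −0.33 and −0.28 with the main scaling (limma adjusted p of 0.0027 and 0.0050) and of 0.10 and 0.15 in plain CPM (0.37 and 0.22), so their direction was not fixed: the choice of scaling moved the median of all genes by 0.38, from −0.01 to 0.38, and the split of calls from 3262 higher and 3653 lower to 6658 and 1702. Relative to that median Krt5 and Krt14 were lower under both scalings, by −0.33 and −0.27 or −0.28 and −0.23.

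The other lists showed which cells lay on each side of the limit, and the directions named here were the same in plain CPM. All 10 suprabasal genes tested were lower in Krt13-low cells, led by Krt4, the partner of Krt13 (1353 ± 366 CPM in the other cells against 34.6 ± 12.5 CPM, SD, n = 6). Of 13 basal adhesion genes 10 (12 in plain CPM) were higher, among them Col17a1 and Itgb4, and Cd9 was lower. Trp63, the master regulator of squamous basal cells, was higher (86.6 ± 21.7 against 34.3 ± 11.9 CPM), and 8 of the 13 squamous transcription factors (6 in plain CPM) were lower, including Zfp750, Grhl3 and Klf4. Sox2, which is on the list of basal squamous markers, was also among those lower under both scalings. Among the 15 other keratins tested 14 were lower, with Krt42 the exception.

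Within Krt13-low cells Krt5 and Krt14 were found in nearly all cells and were the pair that varied together most. Detection was compared after every cell had been thinned to 1000 UMIs, which left 14960 cells and dropped 242 shallower ones. Cells with 3 of the 4 keratins made up 47.7% to 55.5% by library, cells with all 4 made up 2.58% to 31.8%, and 0.787% to 2.73% held none. Krt14 was detected in 94.5% to 98.5% of cells and Krt5 in 87.5% to 94.4%.

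Across cells the correlation of Krt5 with Krt14 had a median Pearson r of 0.41 over the libraries (0.28 to 0.55). These correlations are descriptions over cells that share a library and sparse counts. For the other 5 pairs the library medians lay between −0.02 and 0.07. Krt14 and Krt17, both type I chains and both able to pair with Krt5, had r from −0.10 to 0.10 with no common sign. Krt15 and Krt17 had a median of 0.00 (−0.03 to 0.02).

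Krt5 was found in 90.1% to 95.5% of Krt14-positive cells and in 24.2% to 62.0% of the few Krt14-negative cells (library medians of 90.4% and 36.8%). Krt17 was found in 55.9% to 74.7% of Krt14-positive and 12.9% to 49.0% of Krt14-negative cells (medians of 71.6% and 27.7%). Where a keratin is found in nearly all cells, the observed share of cells positive for both cannot lie far from the product of the separate shares, so that ratio is read for Krt15 and Krt17 alone. The share of cells positive for both Krt15 and Krt17 was 0.885 to 1.06 times the product of their separate shares, with High F6, which had 201 Krt15-positive cells, the one library below 1. Among Krt15-positive cells 74.4% had Krt17 (library median, 49.3% to 76.2%), against 67.9% of Krt15-negative cells (56.1% to 70.9%).

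**Figure D3:**
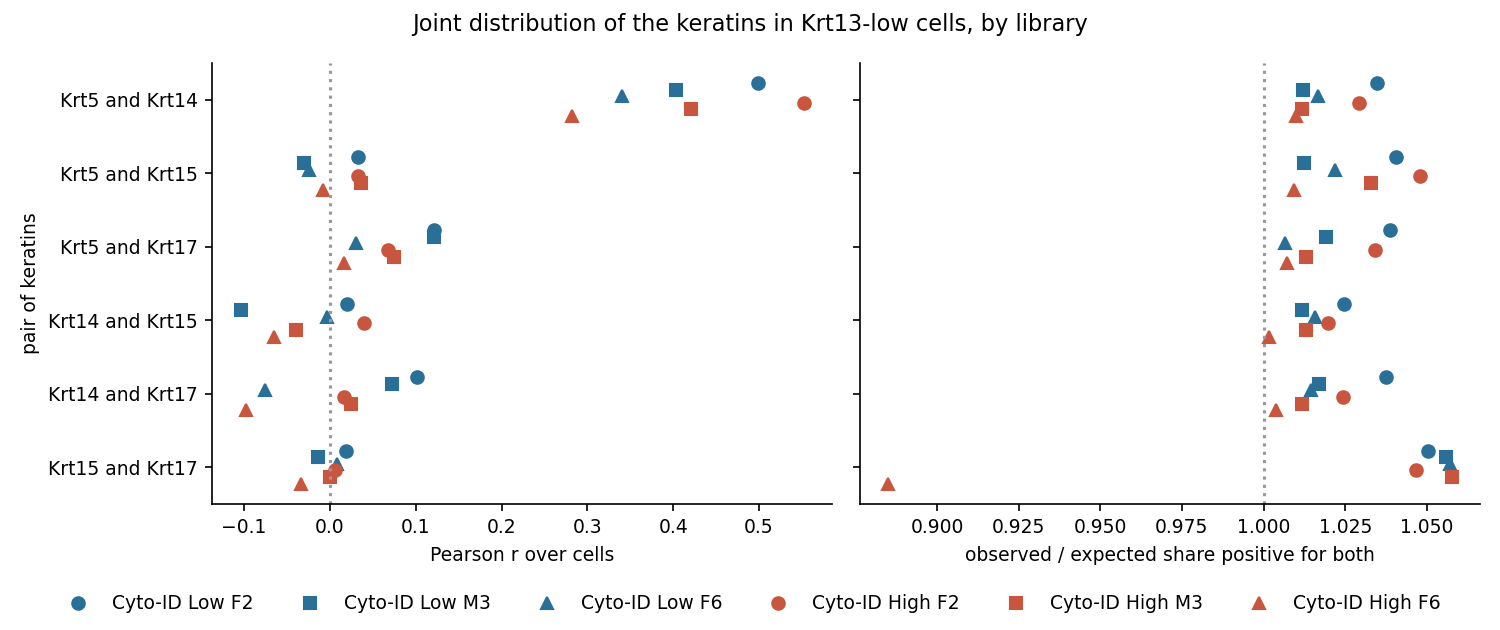
For each pair of keratins in Krt13-low cells thinned to 1000 UMIs, the Pearson r over cells (left) and the observed share of cells positive for both divided by the product of the separate shares (right), 1 point per library. Krt5 and Krt14 lie between 0.28 and 0.55 and every other pair at or below 0.12, and High F6 is the only point below 1 for Krt15 and Krt17, at 0.885.

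Krt15-positive cells, those with at least 1 Krt15 UMI among 1000, made up 21.7%, 45.5% and 24.4% of Krt13-low cells in Low F2, M3 and F6. In High F2, M3 and F6 they made up 13.5%, 34.9% and 6.33%. The share was lower in High within all 3 labels, while High M3 was above Low F2 and Low F6. The group means were 30.5 ± 13.0% and 18.3 ± 14.9% (SD, n = 3), and the difference of −12.3 percentage points gave p = 0.4 in a two-sided exact permutation test whose smallest possible p is 0.1.

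Counting error was small beside that spread: the 95% Wilson interval was 5.54% to 7.23% in High F6 and 43.7% to 47.3% in Low M3. Without thinning the shares were 47.7%, 70.1% and 36.1% in Low and 36.8%, 47.5% and 9.53% in High, at median depths of 7204, 5221, 2331, 9645, 2015 and 1861 UMIs. High F2 was the deepest library and had a lower share than all 3 Low libraries at equal depth.

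Cells with a Krt13 value of 5 or more served as the comparison for free RNA in the droplets. Their Krt15-positive shares were 13.8%, 8.23% and 2.49% in Low and 5.36%, 7.30% and 2.56% in High, below the Krt13-low share of the same library each time. Their median depths were 11826, 9434, 3832, 14579.5, 3681.5 and 2319 UMIs before thinning. In High F6 the intervals were 5.54% to 7.23% for Krt13-low cells and 1.10% to 5.86% for the 195 cells at 5 or more, and its 1202 cells at 3 or more had a share of 2.25% (1.55% to 3.25%). The cells at 5 or more include a few rich in Krt15, described below, so their share is not a measure of free RNA alone.

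Krt17-positive cells made up 71.9%, 69.4% and 72.1% of Krt13-low cells in Low and 66.7%, 71.8% and 55.7% in High (means 71.1 ± 1.54% and 64.7 ± 8.27%, exact permutation p = 0.2, n = 3). Cells with all 4 keratins made up 15.1%, 31.8% and 16.8% in Low and 8.70%, 25.5% and 2.58% in High (exact permutation p = 0.4, n = 3). Their share was lower in High within all 3 labels, which that unpaired test does not use. The Krt13-low cells themselves were 58.1%, 54.8% and 56.2% of kept cells in Low and 70.9%, 49.5% and 72.6% in High (exact permutation p = 0.4, n = 3).

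**Figure D4:**
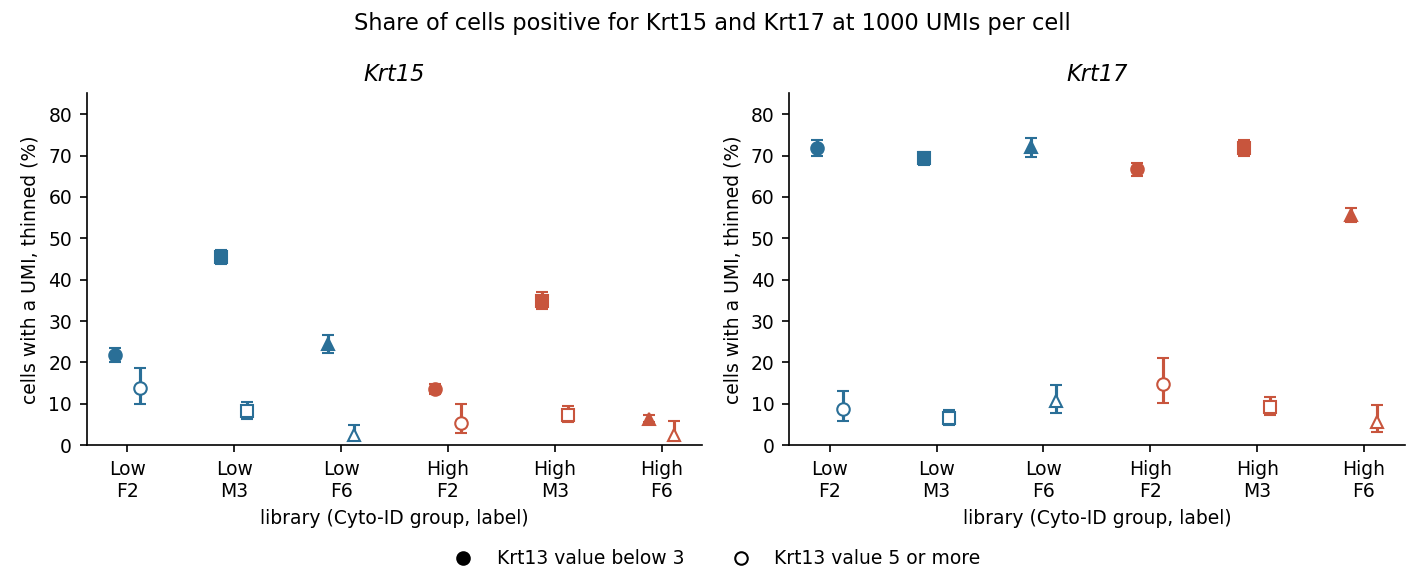
Share of cells with at least 1 UMI of Krt15 (left) or Krt17 (right) after thinning to 1000 UMIs, by library, in Krt13-low cells (filled) and in cells with a Krt13 value of 5 or more (open); bars are 95% Wilson intervals for counting error only. Krt15 runs from 6.33% to 45.5% in Krt13-low cells, and Krt17 from 55.7% to 72.1%.

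Krt15 was unevenly spread over Krt13-low cells. In Low M3, for example, 45.5% of cells were positive where evenly spread molecules at the same mean would have made 66.2% positive. In Low F2 it was 21.7% and 32.2%, and in High F6 only 6.33% and 7.92%. The uneven spread was not particular to Krt15, since for Krt17 it was 69.4% and 93.0% in Low M3 and 71.9% and 92.9% in Low F2. Cells rich in Krt15, set here at 5 or more UMIs per 1000 after the values had been seen, numbered 166 of 3054 in Low M3 (5.44%), 82 of 2134 in High M3 (3.84%), and 0.0945% to 1.16% in the other 4 libraries. In the M3 libraries they carried 31.9% and 32.9% of the Krt15 UMIs of Krt13-low cells. Their Krt14 was at 10562 CPM against 13210.4 CPM in the rest of Low M3, and at 14513 against 17713 CPM in High M3.

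Some cells with high Krt13 were also rich in Krt15. Among cells with a Krt13 value of 5 or more, 10 of 239 in Low F2, 12 of 705 in Low M3, 1 of 321 in Low F6, 3 of 168 in High F2, 8 of 699 in High M3 and 2 of 195 in High F6 held 5 or more Krt15 UMIs per 1000. These few cells carried 42.1% to 75.6% of the Krt15 UMIs at that Krt13 level. Their mean Krt14 was below that of the other cells of that range in all 6 libraries. In Low M3 it was 1492 CPM against 9968 CPM in the others, and in Low F2 5963 against 6451 CPM. Their median depth was 15808 UMIs against 11723 in Low F2 and 13283 against 9329 in Low M3, but 8463 against 14654 in High F2. Whether they include doublets was not tested.

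Krt15-positive Krt13-low cells had lower Psca, Sprr2d and stress keratins than Krt15-negative ones, while Krt5 and Krt17 did not pass. Profiles of 3555 positive and 11405 negative cells were compared within each library on thinned counts. Without thinning, over all Krt13-low cells, 6184 were positive and 9018 negative, so the negative cells include some that hold Krt15 UMIs. With limma 1.19% of 11434 genes passed, 3 higher and 133 lower (1.16%) in positive cells; in plain CPM it was 36 higher and 104 lower. The median of all genes was −0.13 on the log2 scale in that fit; when equal numbers of cells were drawn for the 2 states it was 0.01 and 47 genes (0.42%) passed, 5 higher and 42 lower. With genes of 20 CPM or more it was −0.01 and 134 (2.65%) passed, 33 higher and 101 lower.

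Krt14 was at 8201, 14470.3 and 8891 CPM in negative and 8007, 11371.5 and 7929.97 CPM in positive cells of Low F2, M3 and F6. In High F2, M3 and F6 it was at 10434, 18368 and 6017 CPM in negative and 11026, 16238 and 5039.8 CPM in positive cells. It was thus lower in positive cells in 5 of 6 libraries, High F2 being the exception, with a log2 difference of −0.24 ± 0.05 (SE; limma adjusted p = 0.016). That call was lost in 10 of 21 alternatives, among them plain CPM (−0.15, adjusted p = 0.077), genes of 20 CPM or more (−0.16, 0.057), equal cell numbers (−0.18, 0.20), 1000 or more detected genes (−0.36, 0.60), 2000 UMIs (−0.29, 0.068), 2 or more Krt15 UMIs (−0.45, 0.38), a pseudocount of 0.1 CPM (0.12), no filter (0.095), and leaving out Low M3 (−0.20, 0.12) or Low F6 (−0.24, 0.066). The median of all genes moved with these settings. Relative to it Krt14 was at −0.11 with the main settings, −0.22 at 2000 UMIs, 0.010 with 1000 or more detected genes and 0.027 with 2 or more Krt15 UMIs, so with the last 2 it was not lower than the median gene. Krt5 (−0.13 ± 0.05, adjusted p = 0.28) and Krt17 (−0.18 ± 0.05, adjusted p = 0.10) did not pass. Krt17 did pass with Krt13 below 2 (−0.27, limma adjusted p = 0.043) and with a pseudocount of 10 CPM (−0.18, 0.034), and its sign turned with Krt13 below 4 (0.0077, 0.96).

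The genes lower in Krt15-positive cells included the stress keratins. Krt6b was at 92.8 ± 48.5 CPM in negative and 22.9 ± 7.30 CPM in positive cells (SD, n = 6), lower in 6 of 6 libraries (log2 −1.97 ± 0.23 SE, limma adjusted p = 0.00012). Krt6a was at 1086 ± 214 and 654 ± 131 CPM and Krt16 at 971 ± 603 and 629 ± 414 CPM, each lower in 6 of 6 libraries. All 3 also passed with equal cell numbers. Of 15 other keratins tested 7 were lower and 0 higher, the further ones being Krt23, Krt20, Krt18 and Krt7, with a median of −0.63. With equal cell numbers 5 were lower, and Krt23 and Krt20 did not pass.

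By the rule for naming, the 12 genes with the largest decrease were Sprr2f, Tspan1, 2300002M23Rik, Duoxa2, Pdzk1ip1, Sprr2d, Mal, Psca, BC037156, AA467197, Alox15 and Krt6b. Psca, a surface protein of the Ly6 family, was at 2706 ± 1507 CPM in negative and 648 ± 352 CPM in positive cells (log2 −2.23 ± 0.12, limma adjusted p = 2.1e-08). Sprr2d, a small proline-rich protein of the cornified envelope, was at 537 ± 189 and 139 ± 112 CPM (limma adjusted p = 3.3e-05). Duoxa2, the maturation factor of the oxidase Duox2, was at 39.6 ± 32.3 and 5.25 ± 4.46 CPM. Of the 12, 11 also passed with equal cell numbers, and Mal did not (adjusted p = 0.13). Cbr2, a carbonyl reductase, was the only gene that met the rule in the other direction, at 1440 ± 771 CPM in negative and 1926 ± 1060.3 CPM in positive cells (0.31 ± 0.06, limma adjusted p = 0.013, 6 of 6 libraries). That call was kept in 12 alternatives and lost in 9. The log2 differences were 0.48, 0.43 and 0.52 in Low F2, M3 and F6, and 0.17, 0.19 and 0.05 in High F2, M3 and F6. Cbr2 did not pass in the comparison of such differences between the groups given below. Without High F2 79 genes passed, without Low F6 82 and without High M3 90.

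Superficial-marked cells moved with this split. They were 4.39 ± 2.57% of Krt15-positive and 6.68 ± 1.47% of Krt15-negative cells (SD, n = 6), lower in positive cells in 5 of 6 libraries, with Low F2 the exception (two-sided exact sign-flip permutation p = 0.0625, smallest possible 0.03125). With all superficial-marked cells left out, 94 genes (0.829%) passed, 1 higher and 93 lower, and 91 of them were among the 136. Krt14 passed there too (−0.24, limma adjusted p = 0.018). Most decreases named above were smaller there: Psca went from −2.23 to −1.42 on the log2 scale and Tspan1 from −3.25 to −2.15. Among the genes named for the largest decrease, only Alox15 had a larger one there (−2.01 to −2.49), and Sprr2f had no value. Mal did not pass there (−1.58, limma adjusted p = 0.10). In the main fit, with these cells kept, 2 of 9 suprabasal genes tested were lower, Mal and Krtdap, and 0 with equal cell numbers. Of the 13 basal adhesion genes 0 passed in either direction, and Dst, a plakin that ties keratins to hemidesmosomes, was at 571 ± 123 against 451 ± 111 CPM, higher in positive cells in 6 of 6 libraries (0.26 ± 0.06, limma adjusted p = 0.058; it passed in plain CPM). Of 15 stem cell and quiescence genes 0 passed (median −0.19). Of 14 keratin partners and regulators 3 were lower, namely Evpl, Pkp1 and Sfn, which encode a cornified-envelope plakin, a desmosomal plaque protein and the 14-3-3 protein stratifin; in plain CPM 2 passed and with equal cell numbers 0 did.

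**Figure D5:**
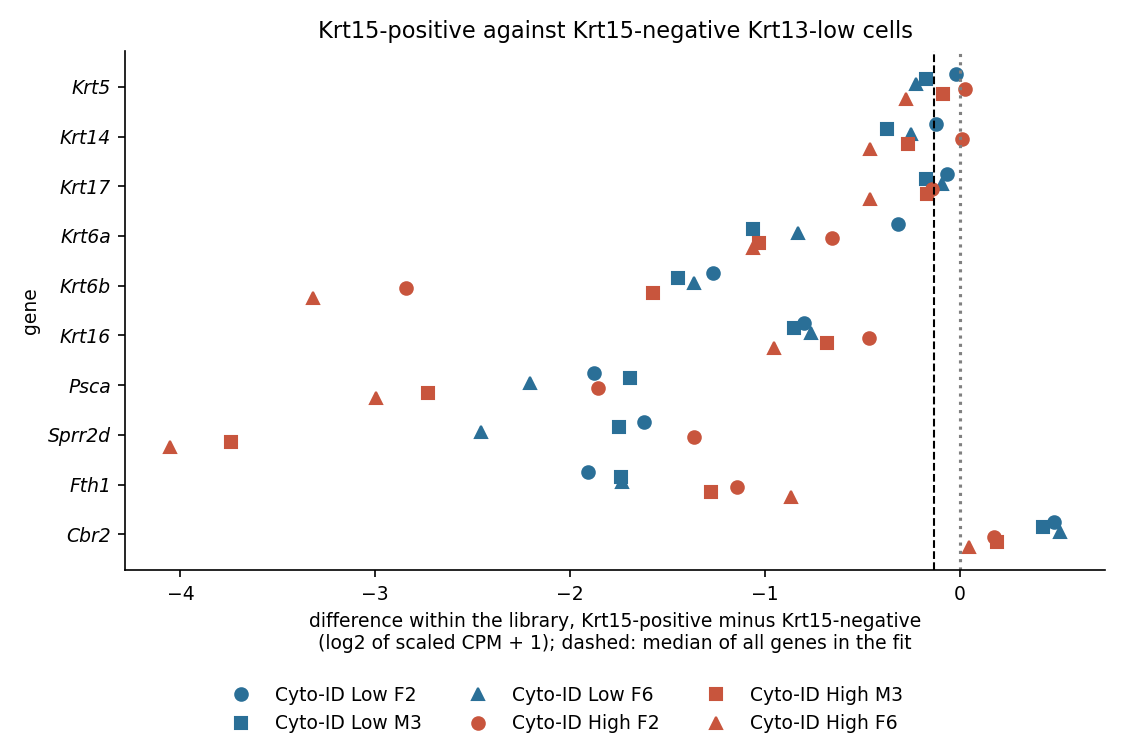
Difference between Krt15-positive and Krt15-negative Krt13-low cells (horizontal axis, log2 of scaled CPM + 1) for 10 genes, 1 point per library; the dashed line is the median of all genes in the fit, −0.13. Krt5, Krt14 and Krt17 lie between −0.46 and 0.03, while Krt6b, Psca, Sprr2d and Fth1 lie at or below −0.87 in all libraries.

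The differences between Krt15-positive and Krt15-negative cells were themselves compared between the Cyto-ID groups. The interaction was 0.03 ± 0.09 (SE) for Krt5, 0.01 ± 0.10 for Krt14 and −0.15 ± 0.09 for Krt17, with limma adjusted p of 0.97, 0.99 and 0.86; the median of all genes was −0.11. Of 11434 genes 1 passed (0.00875%; 596 at an unadjusted p under 0.05), Fth1, the ferritin heavy chain that stores iron. Fth1 was lower in Krt15-positive cells in every library, by −1.91, −1.74 and −1.73 on the log2 scale in Low and by −1.15, −1.27 and −0.87 in High.

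The share of cycling cells differed between Krt15-positive and Krt15-negative cells by less than the spread between libraries (1.09 ± 2.82 percentage points, SD of the 6 differences). Cells with 3 or more UMIs from 16 mitotic genes were 8.51 ± 5.07% of Krt15-positive and 7.42 ± 2.77% of Krt15-negative cells (SD, n = 6; lower in positive cells in 3 of 6 libraries; exact sign-flip permutation p = 0.4375). They were less frequent among positive cells in all 3 Low libraries (5.61%, 7.27% and 0.84% against 5.91%, 8.53% and 2.71%) and more frequent in all 3 High libraries (11.0%, 10.9% and 15.4% against 7.48%, 9.72% and 10.2%).

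Seen from the cycling cells, Krt5 and Krt14 were lower than in the other Krt13-low cells. Krt14 was 0.675 to 0.873 and Krt5 0.683 to 0.954 of the level in the other cells of the same library, lower in 6 of 6 libraries. The log2 differences were −0.71 ± 0.10 (SE) and −0.61 ± 0.09 (limma adjusted p of 0.0015 and 0.0033; 6.32% of 11177 genes passed, 178 higher and 528, or 4.72%, lower; 276 higher and 201 lower in plain CPM). Those values lie beyond every library's own ratio, and the median of all genes was −0.51 in that fit. Krt14 and Krt5 differed by −0.39 and −0.29 in plain CPM (median of all genes −0.25) and by −0.37 and −0.25 with no thinning (median −0.08), and passed in each. Relative to the median they were at −0.20 and −0.10 in the first fit and at 0.20 and 0.30 with a pseudocount of 0.1 CPM, so their place against the median gene was not fixed. With equal cell numbers, where the median was 0.02, Krt14 differed by −0.55 and Krt5 by −0.44 (adjusted p of 0.00065 and 0.018; 1.67% of 9792 genes passed, 100 higher and 64, or 0.654%, lower). Krt17 was at 0.861 to 1.06 of the level in the other cells and passed in the first fit (−0.36, limma adjusted p = 0.041), a call lost in 13 of 19 alternatives, among them plain CPM (−0.04, 0.67), genes of 20 CPM or more (−0.20, 0.083), no thinning (−0.02, 0.74), equal numbers (−0.08, 0.64) and leaving out any library but Low F6. Krt15 differed by −0.70 ± 0.35 (adjusted p = 0.24), between 0.203 times in Low F6, which had 33 cycling cells, and 1.68 times in High F6. Without Low F6 that value was −0.24, with another thinning seed −0.42 and at 2000 UMIs −0.16. Of the 13 basal adhesion genes 5 were lower in cycling cells (Itgb4, Itgb1, Itga6, Col17a1 and Dst), and with equal numbers or in plain CPM 0 were.

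The genes most like Krt5 and Krt14 across Krt13-low cells were largely the same, while those most like Krt17 were different. Likeness was the median over the 6 libraries of the Pearson r over cells, among 1573 genes detected in at least 5% of cells. Krt5 and Krt14 were each other's nearest gene (0.41), followed for Krt14 by Fabp5, a fatty acid-binding protein (0.38), Gsta4 (0.31), Rpl13 (0.29) and Lgals7, galectin-7 of stratified epithelia (0.29). For Krt5 the next were Gsta4 (0.21), Lgals7 (0.20), Fabp5 (0.18) and Rpl13 (0.17). Krt17 was most like Actb (0.24), followed by S100a6, Tagln2, Sfn, Tmsb4x and Tpm1 (0.17 to 0.16). Among the nearest genes to Krt15 were Lgals7 (0.12), Cbr2 (0.11) and Ftl1 (0.10), values too weak in sparse counts to be read as more than a list. At the other end stood Psca for Krt5 and Krt14 (−0.23 and −0.39), Ecm1 for Krt15 (−0.13) and Gsto1 for Krt17 (−0.23).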

How the data were processed

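Single-cell 3′ libraries of mouse esophageal organoids were read from the tables the authors deposited, 1 per library, whose values are natural log values, ln(1 + UMIs per 10000), as found from the values: after undoing the log each cell sums to 10000, and 100% of the non-zero values were whole UMIs within 1e-06. The submitters' processing notes name Cell Ranger 6.0.0, Seurat 4 and the builds mm10 and GRCm38, without their roles. The keratins, lists and limits were chosen with earlier results of these data known. Cells with at least 500 detected genes were kept. CPM were averaged over the cells of a library, the replicate, scaled by TMM factors, and tested as log2(CPM + 1) with limma 3.58.1 (trend, R 4.3.3) over genes of at least 1 CPM in 3 libraries, or in 6 of 12 profiles in fits within libraries, with a library term, Benjamini-Hochberg adjustment and a threshold of 0.05. Fold changes on this scale understate the change of low genes. Depths ranged from 8231527 to 48873796 UMIs per library in kept cells, and intervals cover counting error only. For splits by Krt15 and cycling, cells were thinned to 1000 UMIs. Shares were compared by exact permutation over libraries. Named genes were the 4 keratins, members of the lists, and, in the fits by Krt15 and by Cyto-ID, up to 12 genes per direction past the threshold with at least 20 CPM that moved the same way in every library or label. Libraries with the same label deviated together, weakly for F6. The correlations were 0.76, 0.58 and 0.15 for F2, M3 and F6 over all cells, and 0.71, 0.61 and 0.14 in Krt13-low cells. The label was treated as a pairing seen in the data only in the fits with a block and in comparisons within labels. The main fits by Cyto-ID and the exact tests of 3 libraries against 3 did not use it. The fits within libraries and the sign-flip tests did not use it either and counted the 6 libraries as separate units. Their p-values and SEs therefore make no allowance for likeness between libraries with the same label. High F6 correlated more with Low F2 (0.17 and 0.23) than with Low F6. The fit was tested on simulated data. A result that needs an item withheld for evaluation is not reported here.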

Additional observations from a re-analysis of the deposited data

Results flagged for a closer look

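The difference between Krt15-positive and Krt15-negative Krt13-low cells differed between the Cyto-ID groups for 1 gene, Fth1, by a limma interaction term of 0.70 ± 0.09 (SE, High minus Low, log2 scale; adjusted p = 0.00997 over 11434 genes). Fth1 was at 14063, 12987 and 8252 CPM in Krt15-negative and 3982, 3955 and 2630.3 CPM in Krt15-positive cells of Low F2, M3 and F6, and at 12363, 11149.7 and 2945 CPM against 5851, 4901 and 1861 CPM in High F2, M3 and F6. It was no member of a list, and it did not pass without Low F2 (adjusted p = 0.33) or Low F6 (0.11).

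The share of cycling cells among Krt15-positive minus Krt15-negative Krt13-low cells had opposite signs in the groups, lower in all 3 Low libraries (mean −1.14 ± 0.787 percentage points, SD, n = 3) and higher in all 3 High libraries (3.33 ± 2.07). The difference of 4.47 percentage points gave p = 0.1 in a two-sided exact permutation test, the smallest p that 3 libraries against 3 can give. Opposite signs in all libraries of the groups always give that p, so the test adds nothing to the signs themselves. Within every library the Wilson intervals of Krt15-positive and Krt15-negative cells overlapped. They were 0.286% to 2.44% and 1.90% to 3.84% in Low F6, and 8.37% to 14.4% and 6.54% to 8.54% in High F2. In Low F6, 33 cells were cycling.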

How the results depend on the processing

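The direction of the 4 share differences and of Krt15 between the Cyto-ID groups was the same under each alternative run. The exact test of 3 libraries against 3 cannot go below 0.1, so it could pass no share under any setting. With the library label as a block 68 genes (all cells) and 81 genes (Krt13-low cells) differed by Cyto-ID, against 20 and 27 without it; the block changed the call of none of the 4 keratins. Over all cells other counts were 5 (pseudocount 0.1 CPM), 12 (10 CPM), 0 (no filter on low values; 1343 at an unadjusted p under 0.05), 12 (summed UMIs) and 13 (1000 or more detected genes), and in Krt13-low cells 2 (no filter) and 16 (1000 or more genes). By Krt15 the count of 136 became 65 (pseudocount 0.1 CPM), 228 (10 CPM), 7 (1000 or more genes), 51 (Krt13 below 2), 453 (Krt13 below 4), 734 (no thinning), 47 (equal cell numbers, added after seeing the data) and 3 (2 or more Krt15 UMIs); plain CPM gave 36 higher and 104 lower. By Krt13, 6915 became 3394 with genes of 20 CPM or more (added later). By cycling, 706 became 461 (1000 or more genes), 1293 (2000 UMIs), 2460 (no thinning), 365 (20 CPM or more, added later) and 164 (equal numbers, added later), and plain CPM gave 276 higher and 201 lower. The interaction count of 1 became 0 (pseudocount 0.1 CPM or no filter; 490 and 778 at an unadjusted p under 0.05) and 2 (10 CPM). Leaving out 1 library at a time gave 3 to 20 (all cells by Cyto-ID), 6 to 28 (Krt13-low cells), 79 to 166 (by Krt15), 6290 to 6828 (by Krt13), 349 to 1230 (by cycling) and 0 to 8 (interaction), and share differences of −20.6 to −4.78 (Krt15-positive), −9.96 to −1.87 (Krt17-positive), −15.6 to −3.66 (all 4 keratins) and 3.82 to 15.3 percentage points (Krt13-low cells).

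Log2 values that changed sign were, over all cells by Cyto-ID, Krt5 at −0.066 (plain CPM), −0.0076 (summed UMIs) and −0.041 (1000 or more genes) and Krt17 at −0.083 (plain CPM); by Krt13, Krt5 at 0.10 and Krt14 at 0.15 (plain CPM); and by Krt15, Krt17 at 0.0077 (Krt13 below 4). Leaving out 1 library at a time gave, over all cells, −0.097 to 0.15 for Krt5, −0.19 to 0.48 for Krt14 and −0.27 to 0.27 for Krt17; in Krt13-low cells, −0.16 to 0.56 for Krt14 and −0.47 to 0.19 for Krt17; and in the interaction, −0.039 to 0.11 for Krt5 and −0.12 to 0.12 for Krt14. The causes of these changes were not tested. In Krt13-low cells 462 Krt15 UMIs were counted in High F6 and 16969 in Low M3, and these numbers limit what can be said of Krt15 in each.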
